A study of Mus musculus with 16 samples.

Results

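The miRNAs miR-320-3p, miR-484, miR-877-5p, miR-877-3p and miR-451a, each made without one of the usual processing steps, were followed in C2C12 cells. C2C12 is a line of mouse muscle precursor cells that form myotubes in medium with little serum. Rows of the deposited tables were taken when the listed name, without text in parentheses, equalled 1 of these 5 names. This gave 3897 of 503060 rows, 5 of 2510 names and 174891 reads, 0.454% of all reads. Of the 16 libraries, 4 each came from control cells and from triple-knockout (tKO) cells, in growth medium (GM) or on day 3 in differentiation medium (DM3). In the tKO cells the genes of miR-206 and of both copies of miR-1a (miR-1a-1, miR-1a-2) were deleted. GM held fetal bovine serum and DM3 a lower share of horse serum, and all cells carry the label PAX7 NEG. Each group holds 2 lines with 2 replicates each. The lines are 2 control populations or 2 tKO clones. A group thus rests on 2 lines, not 4, and p-values measure the spread between libraries, not between lines. In the fits of levels, lengths and tails, the 4 groups share 1 estimate of that spread.

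Most miRNAs are cut by Drosha in the nucleus, which frees a hairpin from the primary transcript, and then by Dicer in the cytoplasm, which removes the terminal loop. The precursors of miR-320 and miR-484 are known to skip Drosha, because transcription starts at the first base of the hairpin and gives a capped precursor whose 3p or 5p arm Dicer releases. miR-877 is a mirtron: splicing of a short intron of Abcf1, which encodes a translation factor of the ABC protein family, makes the hairpin ends, and Dicer cuts off the loop. miR-451a is the reverse case, cut by Drosha and sliced by Argonaute 2 in place of Dicer, and is best known from red blood cell precursors.

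The mature sequences show which end of each hairpin is read and are given 5′ to 3′ as DNA letters, with the seed (bases 2 to 8, which pair with targets) in capitals. No 2 of the 5 share a seed. They come from the deposited tables, and 4 of the 5 equal the RefSeq sequence of build GRCm38.p6.
miR-320-3p: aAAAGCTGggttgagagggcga
miR-484: tCAGGCTCagtcccctcccgat
miR-877-5p: gTAGAGGAgatggcgcaggg
miR-877-3p: tGTCCTCTtctccctcctccca
miR-451a: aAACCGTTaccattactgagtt
The results on miR-877 turn on the middle of its hairpin, which is shown from the GENCODE M21 transcript with the span of the commonest long read over the terminal loop (bases 25 to 64 of 85) in capitals. This span is called the loop here, and its last 2 bases are also the first 2 of the annotated miR-877-3p. Below it stands the loop read that was most common in the libraries, whose capital A marks the base where it differs from that transcript.
miR-877 hairpin: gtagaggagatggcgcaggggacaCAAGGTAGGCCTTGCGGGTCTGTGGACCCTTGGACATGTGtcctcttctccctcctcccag
miR-877 loop read: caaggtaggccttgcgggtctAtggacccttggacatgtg

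On GRCm38 (mm10, GENCODE M21), Mir877 lies at chr17:35960730-35960814 on the minus strand and fills exactly the intron between exons 12 and 13 of Abcf1. Mir320 lies at chr14:70443510-70443591 on the plus strand, 62 bases from the start of Polr3d, which encodes a subunit of RNA polymerase III and runs the other way. Mir484 lies at chr16:14159626-14159692 on the plus strand. It is antisense to Marf1, overlaps in part 1 annotated exon of that gene, which is untranslated, and ends 3582 bases before the start of Nde1. Mir451a lies at chr11:78073170-78073241 on the plus strand, 99 bases after Mir144, which is cut by Drosha from the same primary transcript.

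Library totals ran from 112792 to 6543570 reads, so 3 reads, taken as the smallest amount the depth can show, were worth 0.458 to 26.6 CPM (reads scaled to a common library total). Intervals and floors cover counting error only, since reads carry no molecular identifiers. The library labelled tKO DM3 line 1 replicate 1 was the smallest and held 35.4% reads listed as miR-6240 or miR-6236, against 0.555% to 17.1% elsewhere. Unlike these floors, the levels that follow are CPM after scaling by TMM, edgeR's trimmed mean of M-values. The deleted miR-206-3p stood at 831 to 1645 CPM in control GM and 14039 to 58850 in control DM3. In tKO GM it stood at 1.09 to 18.4, and in tKO DM3 at 0.822 to 61.0. Of 6 muscle miRNAs all had reads in at least 1 library, but not in every group, since miR-1a-3p had 0 reads in tKO DM3. Their summed levels, which include the deleted miRNAs, were 885 to 1689 in control GM and 14646 to 59454 in control DM3. In tKO GM they were 52.3 to 84.9, and in tKO DM3 73.4 to 346. Of 6 blood miRNAs 5 had reads, with summed levels of 0 to 12.7 CPM per library, and miR-142a-5p was at 0. In bulk RNA, fewer cells of a kind and less RNA per cell cannot be told apart.

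Levels are CPM after scaling by TMM, edgeR's trimmed mean of M-values, and each set of 4 values follows the order line 1 replicates 1 and 2, then line 2 replicates 1 and 2. Under its listed name miR-484 had the highest mean of the 5 in each group. miR-320-3p stood above it in control GM line 2 replicate 2 and in tKO GM line 1 replicate 2. In control GM miR-484 stood at 2922, 2758, 2489.9 and 2013, and in tKO GM at 2684, 2646, 2839 and 3073. In control DM3 the values were 3607, 2156, 2735 and 2163, and in tKO DM3 they were 1549, 2013, 3572 and 2862. All 4 groups overlapped, and the widest spread was in tKO DM3. The listed name miR-484 holds only the exact mature sequence (93648 reads). Isoforms of the same arm stand under miR-484-5p, and with both names together the group means were 4442 ± 759 (SD, n = 4) in control GM, 4720.2 ± 417 in tKO GM, 4431 ± 1016 in control DM3 and 4132 ± 1627 in tKO DM3.

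The level of miR-320-3p was lower in most DM3 libraries than in GM. It stood at 1909, 2430.5, 1911 and 2048 in control GM and at 1728, 1542, 1397 and 1393 in control DM3, and these groups did not overlap. Of all 881 names tested, 16.5% were lower in DM3 without overlap in control and 10.3% in tKO. In tKO GM it stood at 1409, 2799.5, 1809 and 2588. In tKO DM3 the values were 839, 1168, 1358 and 1529.9, with 1 library above the lowest of tKO GM. The smallest value came from tKO DM3 line 1 replicate 1, which held 110 reads of miR-320-3p.

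The miR-877 arms were much rarer. miR-877-5p stood at 65.8, 55.1, 69.4 and 54.5 in control GM, 74.1, 53.9, 87.5 and 59.3 in tKO GM, 68.1, 46.9, 49.6 and 38.4 in control DM3, and 76.3, 51.2, 69.9 and 48.5 in tKO DM3. These groups overlapped. Reads listed as miR-877-3p stood at 267, 256, 262 and 258 in control GM and at 336, 411, 281 and 249 in tKO GM. In control DM3 the values were 111, 75.6, 90.1 and 75.3, and in tKO DM3 they were 99.2, 127, 76.1 and 123. Every DM3 library lay below every GM library, as the plot of levels by library shows.

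**Figure D1:**
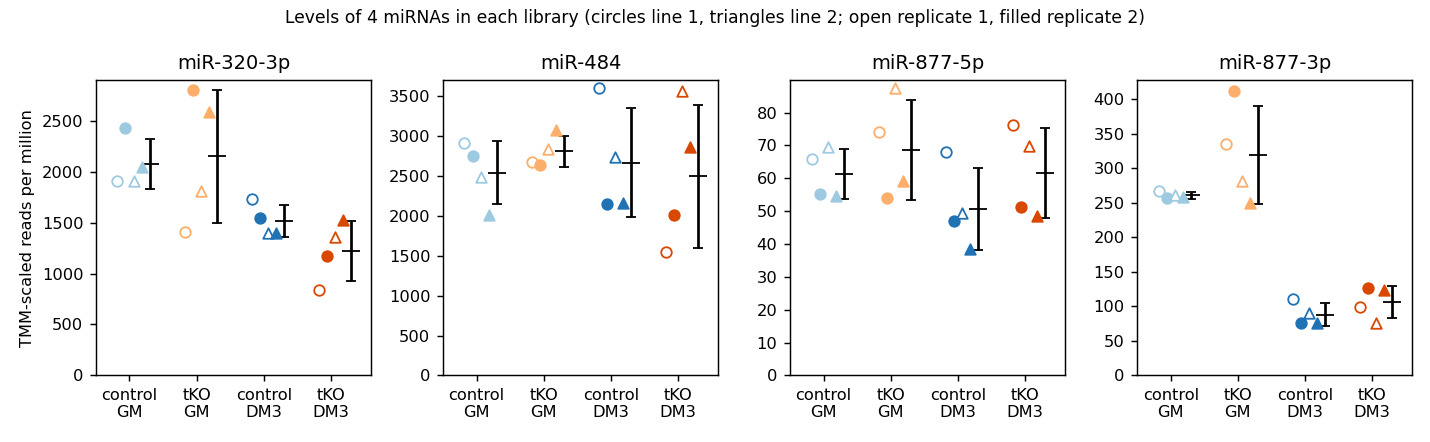
Levels of miR-320-3p, miR-484, miR-877-5p and reads listed as miR-877-3p in TMM-scaled CPM (y axis, linear from 0) for 4 libraries in each of 4 groups (x axis). Points are libraries, with circles for line 1, triangles for line 2, open for replicate 1 and filled for replicate 2, and the bar is the mean with its SD; reads listed as miR-877-3p are at or below 127 in DM3 and at or above 249 in GM.

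Whether loss of the miR-206 family changed these miRNAs was asked in each medium. Of the 5 members, miR-451a did not pass and was not tested, and none of the 4 members that passed the filter on low counts differed between tKO and control. The background was 1.36% of 881 names called in GM and 1.14% in DM3 (edgeR quasi-likelihood test, Benjamini-Hochberg adjusted p under 0.05). In GM the log2 differences, tKO minus control, ran from 0.05 ± 0.27 (SE) for miR-320-3p to 0.29 ± 0.30 for miR-877-3p. In DM3 they ran from -0.30 ± 0.27 for miR-320-3p to 0.29 ± 0.31 for miR-877-3p. The lowest unadjusted p of the 4 was 0.274, and the DESeq2 Wald test called none of them. Over all names the median log2 difference between genotypes was 0.12 in GM and 0.16 in DM3 under this scaling.

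Reads listed as miR-877-3p were lower in DM3 than in GM in both genotypes. The log2 difference, DM3 minus GM, was -1.58 ± 0.31 in control (2.99-fold lower, edgeR adjusted p = 0.000861) and -1.58 ± 0.31 in tKO (2.98-fold lower, adjusted p = 0.0015). Of the 881 names, 28.3% were called in control (13.1% lower in DM3) and 19.9% in tKO (8.17% lower). miR-320-3p had a log2 difference of -0.45 ± 0.27 in control (adjusted p = 0.218). In tKO it fell by 0.81 ± 0.27 (adjusted p = 0.0411), and this call was lost in 15 of the 16 fits that left out 1 library. It was kept without tKO GM line 1 replicate 1 (-0.95). It was also lost with isoform names merged (-0.83, adjusted p = 0.0572), with total counts (-0.70, adjusted p = 0.141), with no filter (-0.93, adjusted p = 0.243), with only the groups compared (-0.75, adjusted p = 0.148) and with replicates of a line summed (-0.92, adjusted p = 0.195). miR-484 (0.07 ± 0.28 and -0.17 ± 0.28) and miR-877-5p (-0.29 ± 0.33 and -0.19 ± 0.33) were not called in either genotype. The interaction of genotype and medium was called for 0.0% of names. It had 42 names at an unadjusted edgeR p under 0.05, with 0.361 as the lowest p of a member, and the DESeq2 Wald test called 0. Even the deleted miR-206-3p, at -4.29 ± 1.17, was not called for it (edgeR adjusted p = 0.709). An uncalled interaction thus does not show that there is none.

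The reads listed as miR-877-3p were of 2 kinds. Of 7813 such reads, 5208 (66.7%) covered the terminal loop, and the best match of the others, with up to 1 mismatch, began at base 60 or later, on the side of the 3p arm. Of these, 2416 were placed on that arm without a mismatch. The loop reads were nearly uniform, since 98.4% began at base 25 of the hairpin, 97.4% were 38 to 40 nt long, and 71.7% were the 40 nt sequence printed above. Reads of the 5p arm most often ended at base 24 (34.3%), the base before the loop read starts. Reads of the 3p arm began at base 63 (72.8%) or base 65 (26.6%), and base 65 is the next one after the end of the commonest loop read. The commonest 5p read and loop read and the 3p reads from base 65 thus lie end to end on the hairpin.

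The loop reads carried a base that the annotated transcript lacks. Counted from the first base of the hairpin, the substitution was G46A, and 5181 of the 5200 reads over that base (99.6%) had it. Among libraries with at least 20 loop reads the lowest share was 98.0%. Counts restricted to sequences without a mismatch therefore left nearly all loop reads out, and under that restriction the log2 difference of miR-877-3p between DM3 and GM was 0.34 in control and 0.07 in tKO, neither of them called. The origin of the substitution was not tested.

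**Figure D2:**
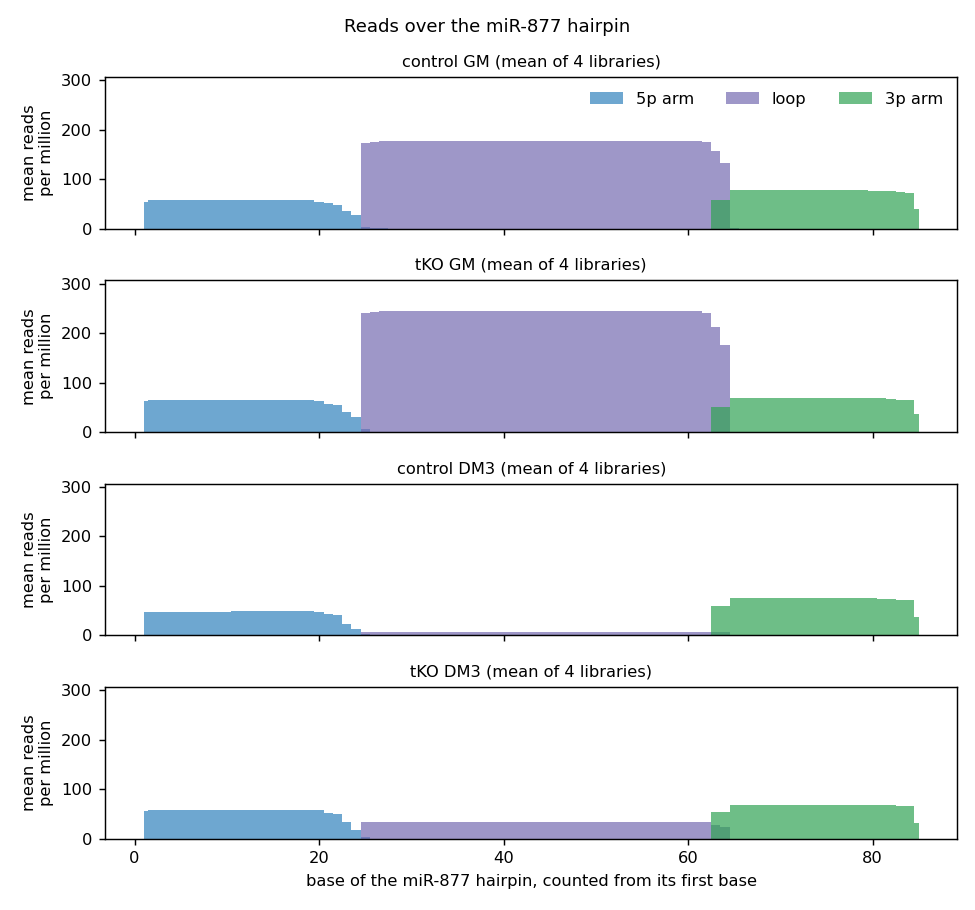
Mean TMM-scaled CPM (y axis, linear from 0) over each base of the miR-877 hairpin (x axis, base 1 to 85) in the 4 groups, each the mean of 4 libraries, for 5p arm reads, loop reads and 3p arm reads. The loop is the tallest block in both GM groups and the lowest in both DM3 groups, while the arms keep similar heights.

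In GM the loop outnumbered each arm taken alone, and in DM3 it fell to a small part of its GM level. The loop stood at 162, 184, 173 and 204 TMM-scaled CPM in control GM and at 253, 323, 200.2 and 189 in tKO GM. In control DM3 it stood at 0, 5.80, 6.94 and 17.9, and in tKO DM3 at 6.83, 70.7, 11.7 and 45.7. No DM3 library reached the lowest GM library. Behind these values stand 79 to 1100 loop reads per GM library and 0 to 254 per DM3 library. The ranges of short fragments lay higher in DM3: reads under 18 nt made up 1.88% to 6.49% of GM libraries and 2.96% to 18.9% of DM3 libraries, and reads listed as miR-6240 or miR-6236 made up 0.555% to 5.41% and 1.60% to 35.4%. In the DM3 order above, reads under 18 nt were 9.58%, 12.8%, 6.13% and 4.76% in control and 18.9%, 4.80%, 4.38% and 2.96% in tKO. The libraries with 0, 5.80 and 6.83 loop CPM had the highest shares of short reads. The highest loop level, 323, came from tKO GM line 1 replicate 2, which had 6.49% of such reads, more than 5 of the 8 DM3 libraries, and tKO DM3 line 2 replicate 2, at 45.7, had 2.96%, within the GM range. The part of short fragments in the loop's fall was not tested.

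As a share of reads listed as miR-877-3p, the loop made up 68.0% ± 7.24 in control GM, 76.4% ± 4.07 in tKO GM, 9.46% ± 9.54 in control DM3 and 29.1% ± 21.9 in tKO DM3 (SD, n = 4). The library control DM3 line 1 replicate 1 had 0 loop reads among 39, with a Wilson 95% interval of 0% to 8.97%. In tKO DM3 the shares split by replicate number: 7.69% and 14.5% in replicate 1, against 55.0% and 39.1% in replicate 2. Replicate 1 libraries were the smaller ones, and tKO DM3 line 1 replicate 1 held only 13 reads under the name.

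With isoform names merged and loop reads counted as a name of their own, loop reads fell by 4.30 ± 0.66 on the log2 scale in control (19.7-fold lower, edgeR adjusted p = 0.000118) and fell by 2.69 ± 0.60 in tKO (6.44-fold lower, adjusted p = 0.00383). In this fit 11.4% of 825 names were called lower in DM3 in control and 7.03% in tKO. The 3p arm itself differed by -0.08 ± 0.33 in both genotypes (adjusted p = 0.898 and 0.906). Its levels were 121, 77.6, 70.3 and 74.9 in control GM, 57.4, 91.9, 73.8 and 69.3 in tKO GM, 110.1, 70.6, 85.6 and 60.7 in control DM3 and 81.9, 57.9, 68.8 and 71.3 in tKO DM3, and the groups overlapped. Splitting the reads was decided after the data were seen. The fall of the loop was called with each library left out, from -5.30 to -4.05 in control and from -3.22 to -2.45 in tKO.

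The loop was higher in tKO DM3 than in control DM3 by 2.03 ± 0.63 on the log2 scale, which was not called (edgeR adjusted p = 0.184, with 0.848% of names called). The interaction, 1.62 ± 0.83, was not called either (edgeR adjusted p = 0.920, with 0.0% called), which does not show that there is none. Of miRNA-named reads outside miR-877, those of 36 to 44 nt made up 0.0562% to 0.231% of reads in GM libraries and 0.0758% to 2.38% in DM3 libraries, and the highest DM3 values, 2.38% and 1.152%, came from the libraries with the most reads listed as miR-6240 or miR-6236 (35.4% and 17.1%). miR-122-5p, a liver miRNA carried in serum, had a lower range in DM3 as well, with 3.87 to 60.5 CPM in GM and 0 to 7.67 in DM3. The media differed in serum, and the part of the serum in the loop's fall was not tested.

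**Figure D3:**
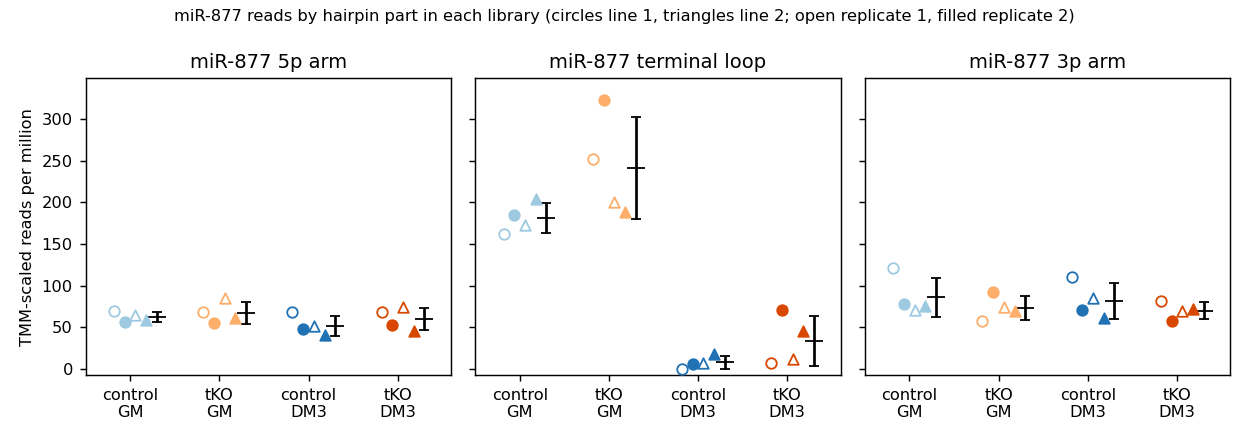
TMM-scaled CPM (y axis, linear) of the miR-877 5p arm, terminal loop and 3p arm in each library of the 4 groups (x axis), on 1 scale. Points are libraries as in the plot of levels, bars are means with SD; loop levels are 162 to 323 in GM and 0 to 70.7 in DM3, while both arms are at or below 121.

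The ratio of the 2 arms, a usual summary of strand choice, depended on whether loop reads were counted with the 3p arm. As listed, the log2 ratio of 5p to 3p reads averaged -2.09 ± 0.16 (SD, n = 4) in control GM, -2.21 ± 0.52 in tKO GM, -0.80 ± 0.14 in control DM3 and -0.78 ± 0.63 in tKO DM3. DM3 exceeded GM by 1.30 in control and 1.43 in tKO, with no overlap (two-sided exact permutation p = 0.0286 for each, the smallest that 4 against 4 can give). Without loop reads the differences were -0.22 (exact p = 0.171) and -0.12 (exact p = 0.657). Then 3p reads exceeded 5p reads slightly, with mean log2 ratios of -0.43 ± 0.28, -0.12 ± 0.47, -0.65 ± 0.08 and -0.23 ± 0.31 in the same order. The ratio of loop to both arms fell by 4.75 in control and by 3.11 in tKO, again without overlap (exact p = 0.0286 for each). Adjusted over the 12 permutation tests of 3 ratios, the smallest exact p became 0.0857, so none passed.

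No difference between genotypes in the ratio of the arms passed the test. Without loop reads the 5p to 3p ratio was higher in tKO than in control by 0.31 in GM (exact permutation p = 0.314) and by 0.42 in DM3 (exact p = 0.0857). As listed the differences were -0.12 (exact p = 0.771) and 0.01 (exact p = 1).

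miR-451a was at the edge of detection. The listed name held 2 reads in 2 libraries, and it did not pass the filter and was not tested. Together with miR-451-5p, which holds isoforms of the same product, 35.5 reads in 8 libraries matched the hairpin exactly, at most 2.55 CPM without TMM scaling. All of these reads began at the first base of the mature form, and they were 17 to 30 nt long. Slicing without Dicer is known to leave a longer form that is then trimmed. Of the reads, 8 had 26 nt or more, and only 1 of them had the full 30 nt. The commonest reads longer than the mature form, with the hairpin bases beyond it in capitals, were these.
miR-451a, 26 nt: aaaccgttaccattactgagttTAGT
miR-451a, 23 nt: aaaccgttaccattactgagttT
Each had 4 reads, and the commonest form, of 21 nt, had 14. Of the 35.5 reads, 30.5 were from GM and 5 from DM3, and 33.5 were from replicate 2, whose libraries were the deeper ones in every group. No exact read of miR-144-3p or miR-144-5p was found. The smallest libraries had floors above 2.55 CPM, so an absence there was not detectable at this depth.

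The 5′ ends differed in precision among the members. Counted here over rows listed without a mismatch and starts within 5 bases of the mature one (2348 reads of the 3p arm, against 2416 placed on it), 99.6% of miR-484 reads began at the mature base, 94.8% for miR-877-5p, 90.1% for miR-320-3p and 72.6% for the miR-877-3p arm. They ranked 80, 163, 185 and 218 of 256 names with at least 1000 placed reads, of which the median was 98.4%. For miR-320-3p the commonest other start was 1 base later (6.41%). For the miR-877-3p arm it was 2 bases later and changed the seed, as the commonest read from each start shows.
miR-877-3p from base 63: tGTCCTCTtctccctcctccca
miR-877-3p from base 65: tCCTCTTCtccctcctcccagt
The first made up 18.2% of placed 3p arm reads and the second 13.2%. Its last base lies beyond the hairpin and is an added one.

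The 3′ ends varied more. The annotated 22 nt form was 62.9% of placed miR-484 reads and 35.4% of miR-320-3p reads, for which a form 1 base longer made up 23.8%. The annotated 20 nt form of miR-877-5p was only 5.68% of its placed reads, and a 24 nt form was the commonest with 30.5%.
miR-877-5p, 24 nt: gTAGAGGAgatggcgcaggggaca
This read ends at base 24 of the hairpin, at the loop border described above.

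Bases added after the hairpin sequence at the 3′ end, a known mark of terminal transferases that act on small RNA precursors and mature forms, were common on all members with enough reads. On the miR-877-3p arm 78.3% of placed reads had an addition, and the first added base was T in 36.5% and A in 36.01% of placed reads. The tables themselves list a tail on 37.3% of these reads, since additions written into a listed sequence are not in the tail columns. Of these 2416 reads, 987 (40.9%) ran past the last base of the hairpin, which is the splice junction. The base after it was T in 55.7%, A in 35.9% and G in 1.93%, and G is the first base of exon 13. Thus only 19 of the 987 reads continued with the base of the next exon.

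For miR-320-3p the first added base was mostly T. The tables list a tail on 46.2% of its reads, rank 77 of the 315 names with at least 1000 reads after isoform names were merged, whose median was 27.5%, and a tail of T or TT on 30.4%, rank 27 and above the upper quartile of 13.7%. miR-484 with its isoforms had a tail on 38.6% and T or TT on 17.6%, ranks 99 and 61. miR-877-5p had 39.2% and 16.4%, ranks 96 and 65. Reads listed as miR-877-3p, most of them loop reads, were lower, with 20.0% and 5.77%, ranks 229 and 161, and both shares lay below the medians of 27.5% and 6.002%.

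Placed reads of miR-320-3p and miR-484 with an addition made up smaller shares in DM3, which is a description without a test. In the test of listed tails given next, miR-320-3p was called in neither genotype with all libraries. Of all names, 27.9% in control and 9.52% in tKO were called lower. Placed reads of miR-320-3p with an addition made up 47.6% ± 1.39 in control GM, 45.9% ± 5.74 in tKO GM, 36.8% ± 1.98 in control DM3 and 33.1% ± 1.66 in tKO DM3 (SD, n = 4). The groups in GM lay between 40.6% and 51.1% and those in DM3 between 31.1% and 39.8%. T was the first added base in 34.6% ± 2.60 in control GM and 25.7% ± 1.60 in control DM3, and in 34.2% ± 5.86 and 21.8% ± 1.59 in tKO. For miR-484 with isoforms the shares with an addition were 41.6% ± 2.47, 39.7% ± 3.53, 33.8% ± 0.999 and 32.7% ± 1.88 in the same order.

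**Figure D4:**
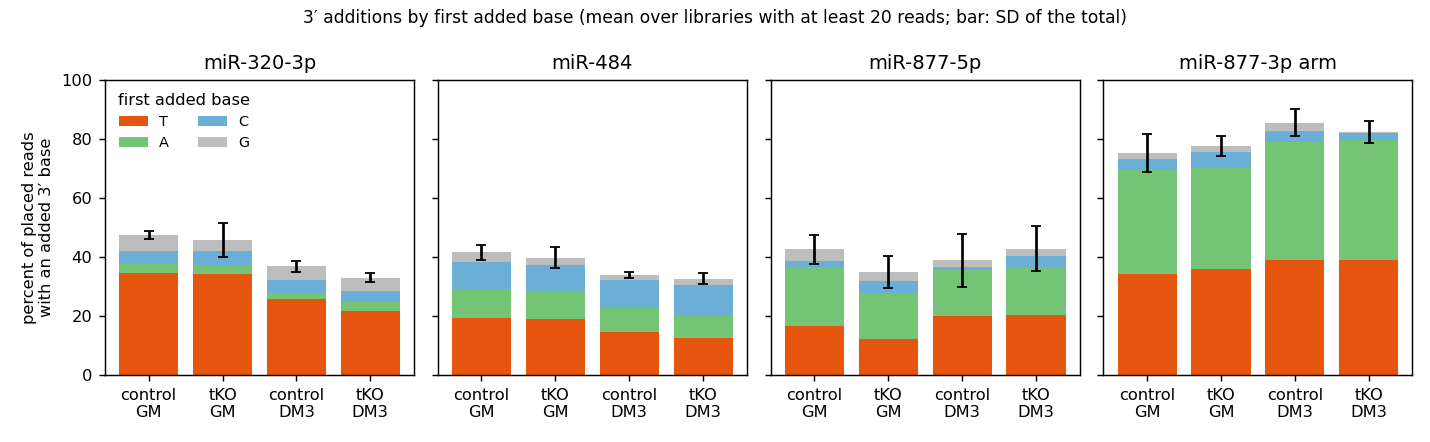
Percent of placed reads with at least 1 added 3′ base (y axis, linear from 0) in the 4 groups (x axis), stacked by the first added base, as means over libraries with at least 20 placed reads, with the SD of the total as bar. miR-320-3p and miR-484 are lower in DM3 than in GM, from 47.6% to 36.8% and from 41.6% to 33.8% in control, and the miR-877-3p arm is at 75.3% or more in every group.

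The listed tail share was tested for each name with limma on the arcsine of its square root, over 315 names as listed, and fitted differences are on that scale. In control, 27.9% of names were called lower in DM3 at a limma adjusted p under 0.05, and in tKO 9.52%. The exact miR-484 sequence was listed with a tail on 25.1% ± 5.97 of reads in control GM and 17.1% ± 1.75 in control DM3 (fitted difference -0.0979 ± 0.0350 SE, limma adjusted p = 0.0445). In tKO the means were 23.7% ± 5.82 in GM and 13.7% ± 1.83 in DM3 (-0.127 ± 0.0350, adjusted p = 0.0312). These calls were lost in 9 and in 5 of the 16 fits that left out 1 library. The highest adjusted p was 0.120, without control GM line 2 replicate 2, and 0.104, without tKO GM line 2 replicate 2.

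With isoform names merged, the tail share of miR-484 was 41.0% ± 2.52 in control GM and 33.4% ± 1.02 in control DM3 (fitted difference -0.0791 ± 0.0192, limma adjusted p = 0.00795). In tKO it was 39.1% ± 3.73 and 32.2% ± 1.78 (-0.0720 ± 0.0192, adjusted p = 0.0278). Of names so merged 27.2% and 7.93% were called lower. miR-320-3p was listed with a tail on 47.8% ± 1.50 and 40.2% ± 2.62 in control GM and DM3 (-0.0758 ± 0.0332, adjusted p = 0.0906) and on 46.7% ± 6.27 and 39.4% ± 6.69 in tKO (-0.0743 ± 0.0332, adjusted p = 0.157). In each genotype, 1 of the 16 fits that left out 1 library called this share lower for miR-320-3p. Its listed rows include reads with a mismatch (10.1%) and reads under 16 nt (3.22%), which the placed reads leave out. With sequences of 18 to 25 nt alone the adjusted p was 0.00377 in control and 0.00353 in tKO. For tails of T or TT, called lower for 9.21% and 8.57% of names, miR-484 was called in tKO (-0.116 ± 0.0336, adjusted p = 0.0431) and miR-320-3p in neither genotype (adjusted p = 0.173 and 0.0948). The call of miR-484 was lost with isoform names merged (adjusted p = 0.0845) and in 11 of the 16 fits that left out 1 library. In control it was not called (-0.0828 ± 0.0336, adjusted p = 0.132) except with the replicate number as a block (adjusted p = 0.00766). With sequences of 18 to 25 nt alone miR-320-3p was called for T or TT (adjusted p = 0.0427 and 0.00897). In tKO, 1 of the 16 fits that left out 1 library called it as well.

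Tails of miR-877-3p as listed moved the other way, together with its mean read length. The listed tail share was 20.4% ± 5.12 in control GM and 42.7% ± 8.33 in control DM3 (fitted difference 0.245 ± 0.0487, limma adjusted p = 0.00351), where 5.08% of names were called higher. In tKO it was 17.7% ± 3.20 in GM (n = 4) and 31.4% ± 9.499 in DM3 (n = 3), which was not called (0.159 ± 0.0526, adjusted p = 0.0674, with 2.22% of names called higher). It was called with the replicate number as a block (adjusted p = 0.0120) and in 1 of the 16 fits that left out 1 library. Its T or TT share was called higher in control (0.183 ± 0.0454, limma adjusted p = 0.0223, with 2.86% of names) and not in tKO (0.161 ± 0.0491, adjusted p = 0.0590, with 1.9%), and the block again gave a call in tKO (adjusted p = 0.0264). The control call was lost in 3 of the 16 fits that left out 1 library. In tKO, 1 of the 16 such fits gave a call. There the T or TT difference ranged from 0.0965 (without tKO DM3 line 2 replicate 1) to 0.220 (without tKO DM3 line 1 replicate 2). The mean read length fell by 9.67 ± 1.18 nt in control (limma adjusted p = 0.000134) and fell by 6.75 ± 1.27 nt in tKO (adjusted p = 0.00344), where 20.0% and 12.7% of names were called shorter. These fits had 15 libraries, without tKO DM3 line 1 replicate 1, which held under 20 reads of the name. For the 3p arm without loop reads the length differed by 0.17 ± 0.15 nt and 0.06 ± 0.16 nt, and the tail share by 0.0757 ± 0.0461 and 0.0477 ± 0.0498 on the arcsine scale, none of them called.

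For miR-484 and miR-320-3p the mean length, which counts the sequence and its listed tail, differed between DM3 and GM by less than 1 nt with all libraries. The listed miR-484 holds only 1 sequence of 22 nt, so its mean length changes only with its tails and is not a result apart from them. miR-484 as listed differed by -0.0875 ± 0.0332 nt in control (limma adjusted p = 0.0666) and by -0.103 ± 0.0332 nt in tKO (adjusted p = 0.0494), and the tKO call was lost in 11 of the 16 fits that left out 1 library. In control it was called with the replicate number as a block (adjusted p = 0.00565) and with at least 50 reads per name (adjusted p = 0.0472). With isoform names merged the differences of miR-484 were -0.161 ± 0.0290 nt (adjusted p = 0.00132) and -0.163 ± 0.0290 nt (adjusted p = 0.00178), beside 20.3% and 14.5% of names called shorter. miR-320-3p differed by -0.57 ± 0.29 nt (limma adjusted p = 0.167) and by -0.86 ± 0.29 nt (adjusted p = 0.0564). In control, 1 of the 16 fits that left out 1 library called it. With each library left out the tKO difference ranged from -1.05 nt (without tKO DM3 line 2 replicate 1, adjusted p = 0.0288) to -0.46 nt (without tKO DM3 line 1 replicate 1, adjusted p = 0.00705), and 3 of the 16 such fits called it. It was called with sequences of 18 to 25 nt alone, by -0.29 nt (adjusted p = 0.00276) and -0.33 nt (adjusted p = 0.00212), and in tKO with at least 50 reads (adjusted p = 0.0397).

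Between genotypes limma called no member for length or tail share. The calls over all names were 0.0% in GM for both measures, and 0.317% for length and 0.0% for tail share in DM3. At an unadjusted p under 0.05 the listed miR-877-3p in DM3 was the member below it, with a limma adjusted p of 0.117 for length and 0.448 for tail share.

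Few reads matched the opposite arms exactly, and the origin of the mismatched reads was not tested. The listed miR-320-5p held 9321 reads, of which 97.1% had a mismatch and 133 matched the Mir320 hairpin exactly. Its listed name rose in DM3 in control (log2 difference 2.41 ± 0.72, edgeR adjusted p = 0.0167, where 15.2% of names were called higher) and was not called in tKO (1.70 ± 0.70, adjusted p = 0.0992, with 11.7% called higher), and nearly all reads of the name hold a mismatch. The name miR-484-3p held 12 reads, of which 3 were exact.

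Other small RNAs made without Drosha were followed by a short list, which does not cover all of them. Of 9 names of mirtrons and of products of a small nucleolar RNA and a tRNA, 8 were tested. In DM3 against GM edgeR called 3 higher and 0 lower in each genotype, beside 15.2% of all names higher and 13.1% lower in control and 11.7% higher and 8.17% lower in tKO, so the count of 0 lower is near the background for 8 names. At an unadjusted edgeR p under 0.05, 1 was lower in control and 0 in tKO. That name, miR-1983, differed by -1.16 ± 0.54 in control (adjusted p = 0.115), which turned to 0.12 ± 0.40 with isoform names merged (adjusted p = 0.865). The median log2 difference of the 8 was 1.21 in control and 0.68 in tKO, against -0.04 and 0.03 over all names. Both arms of the mirtron miR-1981 rose in both genotypes. Its 5p arm averaged 530.4 ± 92.1 and 1403 ± 502 in control GM and DM3 (log2 difference 1.40 ± 0.38, edgeR adjusted p = 0.00947), and its 3p arm 97.3 ± 11.4 and 281 ± 51.5 (1.53 ± 0.37, adjusted p = 0.004). In tKO the differences were 1.16 ± 0.38 (adjusted p = 0.0372) and 1.65 ± 0.37 (adjusted p = 0.00361). miR-1224-5p rose in control (2.13 ± 0.72, adjusted p = 0.0328) and miR-1839-3p in tKO (1.40 ± 0.44, adjusted p = 0.0293). Between genotypes edgeR called none of the 8, and the lowest unadjusted p was 0.118, for miR-702-3p in DM3.

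As a description over 16 libraries that share depth, medium and scaling, each member was set beside names with a mean of at least 100 CPM by the Pearson correlation of log2 levels. Among 274 names, miR-320-3p was most like miR-365-1-3p (r = 0.87), miR-145-5p (0.86) and miR-145a-5p (0.84). miR-484 was most like its own isoform name miR-484-5p (0.96), then miR-30d-5p (0.76) and miR-423-5p (0.72). Reads listed as miR-877-3p were most like miR-92a-3p (0.92), miR-125b-1-3p (0.92) and miR-92a-2-3p (0.91). Among 275 names, miR-877-5p was most like miR-365-3p (0.75), miR-369-3p (0.69) and miR-31-5p (0.67). The 2 names of the miR-877 hairpin thus had different neighbours, but most reads listed as miR-877-3p were loop reads. The 3p arm alone was not compared in this way.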

How the data were processed

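Small RNA libraries were ligated, amplified and size-selected for short inserts, per the labels' protocols, which name no sequencing batch or date. The submitters' processing notes name cutadapt 1.15, STAR 2.5.4 and mm10, and the deposited tables are of the unitas tool, per their file names. Its version and settings are not given in the sources used here. The authors' deposited values are expected counts per sequence, not normalized, where a read with several matches enters as a fraction, and further columns give counts of tailed reads.

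Counts were summed per name and library, rounded, filtered (filterByExpr, smallest count 10), scaled by TMM and tested in 1 fit of 16 libraries with edgeR 4.0.16 in R 4.3.3. The filter left 881 names. Mean length and tail share per name were tested with limma 3.58.1, and arm ratios, with 0.5 reads added, by exact permutation over 70 assignments. Reads of at least 16 nt were placed without a mismatch on GENCODE M21 hairpins, with bases past the last match counted as additions. Loop reads began before base 60 and could hold a mismatch. The fits were tested on simulated data. The members, lists and named items were chosen with earlier results of these data known: all 5 members, their opposite arms, 9 other names made without Drosha, and the 3 names most like each member. Alternatives covered scaling (with DESeq2 1.42.0), filters, tests, blocks, length, mismatches, names, sums per line and each library left out.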

Additional observations from a re-analysis of the deposited data

Results flagged for a closer look

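Outlying libraries were looked for in 95 groups of 4 libraries with Dixon's test at the 95% level, which flags about 1 in 20 groups by chance, and 2 values passed. The miR-877-3p arm without loop reads stood at 121 TMM-scaled CPM in control GM line 1 replicate 1, against 70.3 to 77.6 in the other libraries of that group, and the value rests on 59 reads. In control DM3 line 1 replicate 1, 52.2% of placed miR-877-5p reads had an addition, against 33.3% to 36.2% in the others, and that library held 24 reads of the name.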

How the results depend on the processing

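The fall of miR-877 loop reads in DM3 was called in every alternative run for it, from -4.54 to -4.07 on the log2 scale in control and from -2.98 to -2.56 in tKO. A line term and sums per line were not run for loop reads, and no line term was run for lengths and tails. Reads listed as miR-877-3p kept their fall in every alternative that kept loop reads under the name, and turned to 0.31 in control and 0.0496 in tKO with sequences of 18 to 25 nt, and to 0.34 and 0.0673 without mismatched sequences. Both restrictions leave out most loop reads. The mean length of miR-877-3p likewise turned to 0.26 and 0.16 nt (18 to 25 nt) and 0.17 and 0.0622 nt (loop reads split off), and the arm ratio to -0.15 and -0.10 (18 to 25 nt) and -0.22 and -0.12 (no loop reads). Between genotypes in GM that ratio turned to 0.34 and 0.31. Splitting loop reads, merging names in the limma fits, the T or TT tail and the alternatives for loop reads were chosen after seeing the data.

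Uncalled members changed sign as follows. Between genotypes in GM, miR-320-3p turned to -0.018 (no filter) and -0.21 (replicate block with line term), miR-484 to -0.22 (the same block), and miR-877-3p to -0.0784 (18 to 25 nt), -0.0339 (no mismatch) and -0.22 (split). In DM3, miR-877-3p turned to -0.33, -0.31 and -0.23 under the same 3 settings, and miR-877-5p to -0.0046 with replicates of a line summed. For DM3 against GM in control, miR-484 turned to -0.17 (no filter), -0.0038 (names merged, with or without the split) and -0.0262 (lines summed), and miR-877-5p to 0.14 (total counts), 0.17 (18 to 25 nt) and 0.11 (no mismatch). In tKO, total counts gave 0.0158 for miR-484 and 0.0559 for miR-877-5p. The 3p arm turned to 0.34 and 0.0849 with total counts. Total counts moved the median of all names to 0.33 in control and 0.22 in tKO, from -0.04 and 0.03. The cause of the other changes was not tested.

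Names called between genotypes in GM were 12, and 21 without a filter, 24 with the DESeq2 Wald test, 24 with the replicate block and line term, 20 with 18 to 25 nt and 22 without mismatches. In DM3 they were 10, and 17 with DESeq2 size factors, 17 without a filter, 26 with the DESeq2 Wald test, 16 with the replicate block, 44 with the block and line term, 6 with only the groups compared, 19 with 18 to 25 nt, 18 without mismatches and 50 with lines summed. For DM3 against GM there were 158 in control with 18 to 25 nt and 105 in tKO with only the groups compared, and lines summed gave 1 for the interaction. None of these was tested for its cause.

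With each library left out, names called ranged from 7 to 19 between genotypes in GM, from 7 to 62 in DM3 (62 without tKO DM3 line 1 replicate 1), from 184 to 294 for DM3 against GM in control, from 134 to 179 in tKO, and from 0 to 1 for the interaction. Between genotypes, length calls numbered 0 to 1 in GM against 0 to 8 in DM3, tail calls 0 to 1 against 0 to 3, and tail calls for DM3 in control from 53 to 119. T or TT calls ranged from 25 to 42 in control and from 16 to 32 in tKO. Between genotypes, the log2 difference of miR-320-3p in DM3 ranged from -0.48 (without tKO DM3 line 2 replicate 2) to -0.22. That of miR-484 in GM ranged from 0.0535 to 0.20. Log2 differences ranged from -0.12 to 0.17 for miR-320-3p and from -0.0057 to 0.24 for miR-877-5p between genotypes in GM, from 0.11 to 0.37 for miR-877-3p in GM (lowest without tKO GM line 1 replicate 2), and in DM3 from 0.12 to 0.33 for miR-877-3p (lowest without control DM3 line 1 replicate 2), from 0.0471 to 0.33 for miR-877-5p and from -0.43 to 0.04 for miR-484. For DM3 against GM they ranged from -0.0479 to 0.21 in control and from -0.46 to 0.0114 in tKO for miR-484, from -0.95 to -0.67 for miR-320-3p and from -0.35 to -0.0508 for miR-877-5p in tKO, and from -0.25 to 0.11 and from -0.23 to 0.0036 for the 3p arm. The T or TT share of miR-877-5p ranged from -0.0163 to 0.031 in control. The arm ratio ranged from 1.25 to 1.36 in control and from 1.19 to 1.62 in tKO, where the unadjusted exact p was 0.0857 without tKO GM line 1 replicate 2 and 0.0571 without tKO DM3 line 2 replicate 1, 4 against 3 libraries. Between genotypes its lowest and highest values were -0.30 and 0.12 in GM, -0.21 and 0.20 in DM3.

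Same replicate numbers correlated at a mean of 0.100 over 48 pairs and different numbers at -0.0948, and the labels name nothing that a number shares, so the numbers were not taken as pairs. The labels do name lines, and libraries of the same line in GM and DM3 correlated at a mean of 0.153 over 16 pairs, against -0.143 for the other line of the genotype. With the replicate block and line term, no edgeR call on the level of the 4 members tested changed for DM3 against GM. With permutation within the replicate number (replicate block) the arm ratio differences of 1.30 and 1.43 had an exact p of 0.0556, the smallest such permutations can give. Depth limits miR-451a, and all values of tKO DM3 line 1 replicate 1.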
